A study of Homo sapiens with 18 samples.

Results

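Ludox AS30 nanoparticles (NPs) are commercial colloidal silica with a diameter of 18 nm by electron microscopy. Their early effect on transcription was measured in A549 cells, an established human line from a lung adenocarcinoma that is widely used as a model of alveolar epithelium. The 6 arrays described here are the 3 of cells exposed to AS30 NPs for 2 h and left to recover for 3 h (replicates A, B and C) and the 3 of their own controls with the same letters. They belong to a series of 18 arrays, in which 3 arrays each of SM30 NPs (9 nm) at 3 h and of AS30 NPs at 22 h, with 3 controls each, make up the remainder. The study's methods give a dose of 0.02 mg/mL, applied in medium without serum to cells that had attached for 24 h. Recovery was in complete medium, so serum was removed and given back to treated and control cells alike. All groups are the same untransfected line, and the study's methods describe the replicates as biological.

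Each array was a 1-colour Agilent oligonucleotide slide with 45015 spots, 43376 of them not controls, for 41000 distinct probes. Between 66.0% and 79.8% of spots were positive and significant on the 6 arrays, no spot was saturated, and the lowest share well above background was that of control C, at 52.4% against 61.7% to 67.1% on the other 5. Values are log2 signals after quantile normalization, and the level of one probe is never set against that of another. The 3 treated arrays lay on one slide and the 3 controls on another, so treatment and slide cannot be told apart within these 6 arrays. Each of the same slides also held 1 control array of the 22 h group, and the difference between those 2 arrays, which also differ in replicate letter, is given beside some results. All 7 epithelial markers (keratins, EPCAM, CDH1, MUC1) were well above background on all 6 arrays, as were 4 of 6 surfactant markers, while 4 of 6 fibroblast and 3 of 5 endothelial markers were so on none. Of 7 leukocyte markers 3 (CD68, CD3E and CD14) were well above background on all 6 arrays and 3, PTPRC and MS4A1 among them, on none.

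Silica particles meet the plasma membrane first and are then taken up into endosomes and lysosomes. Signals from the membrane, MAP kinases and the cytoskeleton reach the nucleus within hours. They first switch immediate-early transcription factors, then the phosphatases that shut the kinases off, and then secreted proteins such as matrix metalloproteinases and chemokines. YAP, a coactivator of TEAD transcription factors, is a second route: it leaves the nucleus when cells lose tension or spreading, and its target genes then fall. Forkhead factors of the FOXO group act at low growth factor signalling and drive genes of cell cycle arrest and autophagy.

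After AS30 NPs at 3 h, the most prominent changes were a large rise of the collagenase MMP1 and of C11orf96, rises of genes linked to growth arrest such as CCNG2 and TP53INP1, rises of Kruppel-like factors and MAP kinase phosphatases, and falls of YAP targets such as CCN1, CCN2 and AJUBA. A gene is called here when its adjusted p in limma, with Benjamini-Hochberg adjustment over all probes tested, is under 0.05, and "rose" and "fell" are used only of called genes. With 1 probe a gene (the probe of highest mean signal), 337 of 20958 genes rose, which is 1.61%, and 214 fell, which is 1.02%. Over all 28596 probes tested, 430 rose and 290 fell, and 6964 had an unadjusted p under 0.05. Scaled to the 75th percentile instead, 345 rose and 341 fell. Of the probes that rose, 260 were well above background on all 6 arrays and 236 changed by more than 2-fold, and of those that fell, 184 and 160 did. The median log2 ratio of all genes was 0.016.

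The calls lean on a spread that the 3 ratios of AS30 at 3 h share with the 6 ratios of the other treatments. Fitted on their own 3 ratios, or normalized over the 6 arrays alone, 0 probes were called by limma, with 4861 and 4696 at an unadjusted p under 0.05. Leaving out pair B left 81 calls and leaving out pair A 202, whereas 3060 were called without pair C, and leaving out SM30 pair A, B or C gave 210, 194 or 304. With slide as a fixed block, 52 of 25136 probes were called and 2 of them were among the 720, while 598 of the 604 called probes that still had a value kept their sign. The same treated and control arrays enter that fit, so a kept sign is no separate support. None of the 83 named called probes with a value kept the call in that fit. The 2 control arrays of the 22 h group that shared these slides were also compared. Over all probes the median size of their difference was 0.249 on the log2 scale, beside 0.258 for the change after AS30 NPs. The first is between 2 single arrays and the second a mean over pairs, so the 2 are not like measures. For the 83 named called probes with both values the medians were 0.274 and 1.284, but these probes were selected on that change. The part of the slide in the changes was not tested beyond this.

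The 3 pairs of arrays were not equally alike. Over 25185 probes the log2 ratios of pairs A and B had a correlation of 0.707, which falls to 0.161 for A with C and 0.131 for B with C, a description over probes that share arrays. The SD of the ratios was 0.600 in pair A, 0.754 in pair B and 0.584 in pair C. Each of the 551 called genes moved the same way in every pair in which it had a value. Genes were called on the mean of these same ratios, so a shared sign is largely built in and is no separate support.

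**Figure D1:**
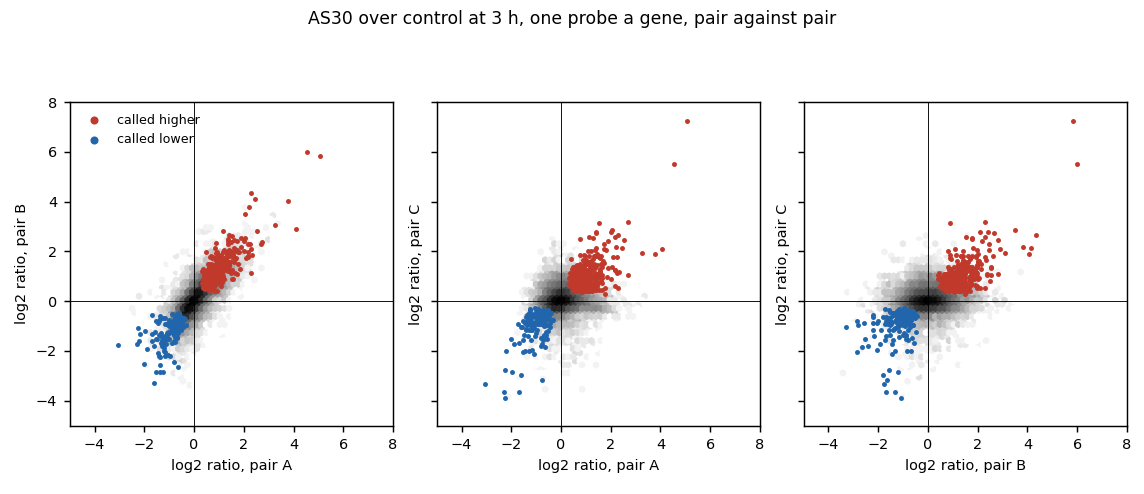
Log2 ratio of treated over control array for each gene in one pair (x axis) against another pair (y axis), for pairs A and B, A and C, and B and C, with called genes in colour (red higher, blue lower). Called genes, which were selected on these same ratios, keep 1 sign across the panels. The cloud of all genes follows the diagonal in A against B (r = 0.707) and hardly in the panels with pair C (r = 0.161 and 0.131).

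MMP1, which encodes interstitial collagenase, rose more than any other named gene. Its log2 signals were 11.05, 12.41 and 11.56 in treated cells A, B and C and 5.99, 6.58 and 4.32 in the controls. The groups did not overlap, and the difference was 6.04 ± 0.38 on the log2 scale (SE, n = 3 pairs), or 65.9-fold (limma, adjusted p = 0.00488). The SE here and below is that of the limma fit, with a spread shared with the ratios of the other treatments. It is not the scatter of the 3 pairs alone: the ratios of MMP1 were 5.05, 5.84 and 7.24, with an SD of 1.11. C11orf96, an uncharacterized open reading frame, had levels of 10.65, 13.12 and 11.88 against 6.10, 7.13 and 6.37, a rise of 5.35 ± 0.32 or 40.7-fold (adjusted p = 0.00125). Its lowest treated array stood well above its highest control. For both MMP1 and C11orf96, 2 of the 3 control arrays were well above background. On the slides of the 22 h controls C11orf96 differed by -2.61, opposite in sign to its rise. In the probe annotation (hg18) the MMP1 probe lies at chr11:102165907-102165966 on the minus strand and that of C11orf96 at chr11:43921914-43921973 on the plus strand.

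Several of the other leading rises are genes of growth arrest and cell death. CCNG2, an atypical cyclin that restrains the cell cycle, had the lowest adjusted p of the named genes. Its levels were 9.37, 9.86 and 9.19 in treated cells and 7.21, 7.57 and 6.60 in controls, with no overlap, a rise of 5.08-fold (adjusted p = 0.00118). TP53INP1, a stress protein that promotes autophagy and cell death, stood at 10.55, 10.67 and 11.04 against 8.81, 8.23 and 8.74, a rise of 4.47-fold (adjusted p = 0.00488). Every treated array exceeded every control for both genes. BMF, a BH3-only protein that neutralizes survival members of the BCL2 family, rose 6.67-fold (adjusted p = 0.0219), and DEPP1, a FOXO target, rose 7.05-fold (adjusted p = 0.0157). For BMF and DEPP1, 2 control arrays each were well above background. HBP1, a transcriptional repressor that slows entry into S phase, rose 3.09-fold (adjusted p = 0.00398). Between the 22 h controls on the 2 slides BMF differed by 1.24, less than its rise of 2.74, and CCNG2 by -0.70.

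The claudins CLDN4 and CLDN14, seals of the tight junction, also rose. CLDN4 had levels of 8.37, 7.45 and 7.46 in treated cells against 5.86, 4.61 and 4.99 in controls, 6.09-fold higher (2.61 ± 0.17, SE, n = 3 pairs; adjusted p = 0.00140 by limma). The lowest treated value lay above the highest control, although only 1 control array was well above background. CLDN14 rose 7.50-fold (adjusted p = 0.0160), also with only 1 control array well above background. STC1, a secreted glycoprotein hormone, rose 8.57-fold (adjusted p = 0.0187), CREBRF, a regulator of the CREB3 stress response, 5.30-fold (adjusted p = 0.0104), and YPEL2, a zinc-binding protein of the Yippee family, 4.46-fold (adjusted p = 0.00520). The control arrays well above background were 1 for STC1 and 2 each for CREBRF and YPEL2. ITGAX, an integrin alpha chain, was not well above background in any control and was at least 2.54-fold higher (adjusted p = 0.0141). TANC2, a scaffold protein, was called higher but is given no fold, and its brighter probe was at 0.21 and not called.

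The sizes of these changes depend on the background correction. With normexp correction (offset 50) in place of the scanner's, the log2 change was smaller by more than 1.5-fold for 53 of 99 named called probes, and it was 3.27 for MMP1, 3.32 for C11orf96, 1.18 for CCNG2, 1.44 for TP53INP1, 1.37 for BMF and 0.72 for CLDN4. MMP1, C11orf96, CCNG2, TP53INP1, BMF and CLDN4 were still called. Without pair B the change of STC1 was 2.47 and that of CLDN14 2.30. With slide as a fixed block C11orf96 was at 7.95, CLDN4 at 3.63 and CCNG2 at 3.04, none called, and MMP1 had no value.

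**Figure D2:**
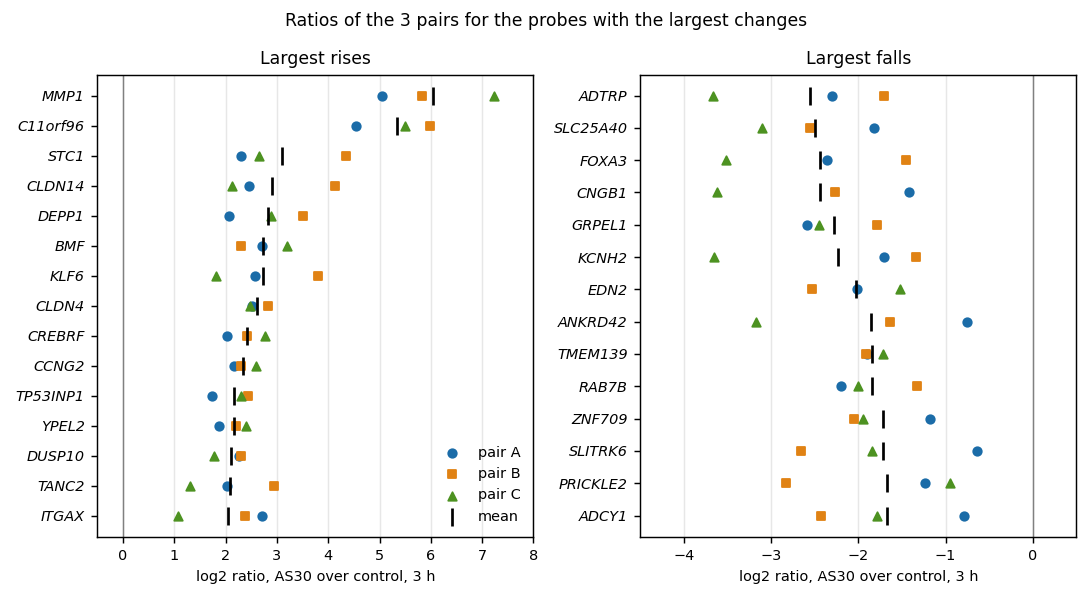
The named genes with the largest rises (left) and falls (right) after AS30 NPs at 3 h, with the log2 ratio of treated over control on the x axis. Each point is 1 of the 3 pairs and the vertical tick marks the fitted mean; MMP1 and C11orf96 stand apart at 6.04 and 5.35.

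Matrix metalloproteinases and their inhibitors mostly had ratios above 0, with few calls. Of 16 measured MMPs and TIMPs, 15 had a ratio above 0 and 2 were called, both higher (12.5%, against 1.61% of all genes). The median of the list was 0.39 against 0.016 for all genes. The other called member was MMP10 (stromelysin-2), at 8.38, 9.40 and 8.67 in treated cells and 5.12 and 5.75 in controls A and B. Control C had no value, so its rise of 3.46 ± 0.47 rests on 2 pairs (limma, adjusted p = 0.0268), and every treated array lay above both controls. Only 1 control array of MMP10 was well above background. In pair C the median of the list was -0.015, against 0.43 and 0.68 in pairs A and B.

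Of 13 coagulation and plasminogen genes 4 rose (30.8%, against 1.61% of all genes) and 1 fell (7.69%, against 1.02%). The list had 7 ratios above 0 and a median of 0.036. Plasmin, which urokinase releases from plasminogen, can activate metalloproteinases. PLAUR, the urokinase receptor, had levels of 12.66, 13.19 and 12.65 in treated cells and 11.46, 11.44 and 11.59 in controls, a rise of 2.53-fold with no overlap (adjusted p = 0.0137). PLAU, urokinase itself, rose 1.96-fold (adjusted p = 0.0159) and F2RL1, a protease-activated receptor, 1.93-fold (adjusted p = 0.0296). TFPI, the inhibitor of the tissue factor pathway, rose 3.22-fold (adjusted p = 0.0324). THBD, thrombomodulin, went the other way: 12.14, 11.73 and 11.49 in treated cells against 13.54, 12.54 and 12.64 in controls, a fall of 1.12 on the log2 scale (adjusted p = 0.0112). Its treated arrays all lay below the lowest control, but its 3 controls also lay above all 6 control arrays of the other groups (11.52 to 12.40), while the treated mean of 11.79 lay within that range. The 22 h controls on the 2 slides differed by -0.88 in THBD, the same sign as its fall, and with slide as a fixed block it was at -0.24. F3, tissue factor (-1.18), did not pass the test.

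Of 17 measured YAP target genes, 7 fell (41.2%, against 1.02% of all genes), none rose, 4 had a ratio above 0, and the median was -0.68, at -0.60, -0.50 and -0.75 in pairs A, B and C. AJUBA, a LIM protein of cell junctions, stood at 10.62, 10.46 and 10.67 in treated cells and 11.94, 12.15 and 12.06 in controls, a fall of 1.46 ± 0.17 (SE, n = 3 pairs; limma, adjusted p = 0.00959). CCN1 and CCN2 encode matricellular growth factors and are standard readouts of YAP. CCN1 was at 13.14, 13.14 and 13.32 against 14.54, 14.49 and 14.43, a fall of 1.29 (adjusted p = 0.0141), and all 3 of its probes were lower. CCN2 was at 9.06, 9.10 and 9.62 against 10.62, 10.35 and 10.66, a fall of 1.28 (adjusted p = 0.0105). NUAK2, a kinase of actomyosin tension, was at 11.52, 10.89 and 11.36 against 12.34, 11.92 and 12.18, a fall of 0.89 (adjusted p = 0.0184). For all 4 genes the highest treated array lay below the lowest control. IGFBP3 fell by 0.88 on the log2 scale (adjusted p = 0.0474), DLC1 by 0.77 (adjusted p = 0.0399) and GADD45A by 0.68 (adjusted p = 0.0374). Values for the rest included AMOTL2 at -0.79 (adjusted p = 0.065), F3 at -1.18 (adjusted p = 0.109), ANKRD1 at -0.009 and NT5E at 0.73. Without pair B 0 members of the list were called and without pair A 2; with slide as a fixed block the median was -0.78 with 0 called.

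Promoters of 3 of these YAP targets are shown because they hold the letters that TEAD factors bind. Sequences are the 250 bases before an annotated start, 5′ to 3′, from RefSeq with the build GRCh38.p14, and capitals mark GGAATG or its reverse complement CATTCC. CCN2 lies at chr6:131951373-131951622, NUAK2 at chr1:205321746-205321995 and AJUBA at chr14:22976843-22977092, all on the minus strand.
CCN2: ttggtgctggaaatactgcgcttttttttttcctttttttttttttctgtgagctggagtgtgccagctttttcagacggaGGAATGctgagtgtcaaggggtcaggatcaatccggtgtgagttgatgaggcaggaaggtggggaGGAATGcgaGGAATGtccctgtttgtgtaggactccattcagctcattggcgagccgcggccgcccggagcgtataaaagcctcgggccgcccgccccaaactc
NUAK2: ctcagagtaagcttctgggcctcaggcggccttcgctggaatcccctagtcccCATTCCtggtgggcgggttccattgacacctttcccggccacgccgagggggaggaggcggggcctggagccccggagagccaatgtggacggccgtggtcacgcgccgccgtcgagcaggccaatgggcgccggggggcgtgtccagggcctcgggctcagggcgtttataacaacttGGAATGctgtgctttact
AJUBA: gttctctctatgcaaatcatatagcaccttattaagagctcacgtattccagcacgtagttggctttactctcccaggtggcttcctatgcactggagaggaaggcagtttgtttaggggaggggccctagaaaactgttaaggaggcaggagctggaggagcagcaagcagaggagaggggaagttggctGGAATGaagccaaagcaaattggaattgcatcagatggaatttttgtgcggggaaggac
The 3 matches of CCN2 lie 169, 104 and 95 bases before the start, those of NUAK2 197 and 18 bases and that of AJUBA 59 bases before one of 2 annotated starts. The motif, counted on both strands, was found in 7 of the 12 YAP list genes with a window (58.3%), in 13.4% of 11257 tested genes, in 14.3% of genes called lower and in 10.9% of genes called higher.

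**Figure D3:**
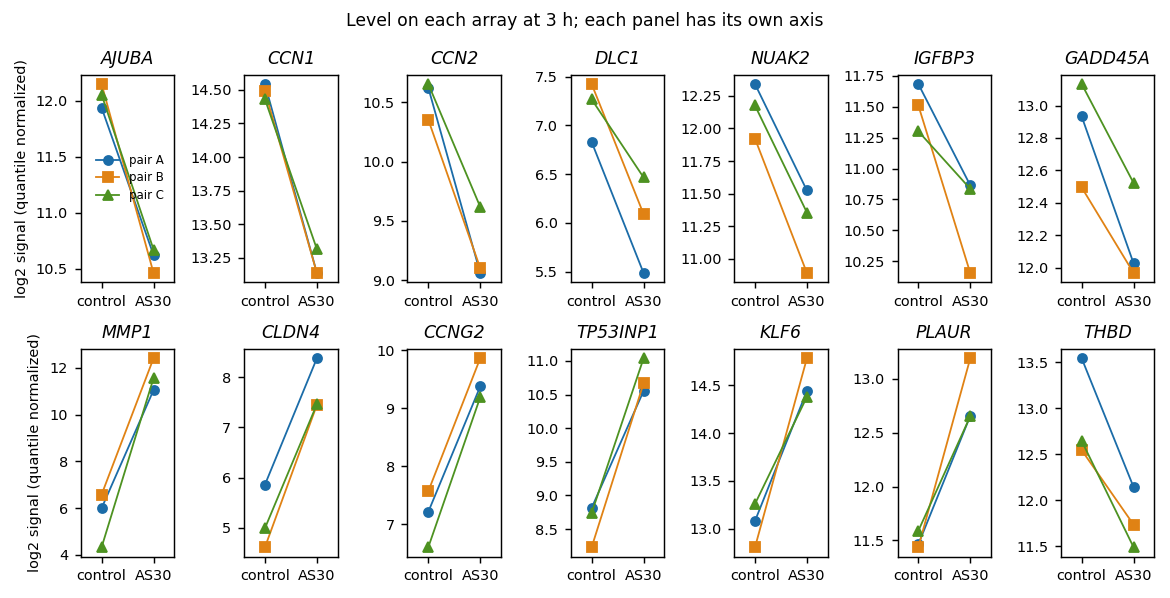
Log2 signal of 14 named genes on the 3 treated and 3 control arrays at 3 h, 1 panel a gene with its own axis; each point is 1 array and lines join arrays of the same letter (the DLC1 panel shows its dimmer probe). The treated arrays of MMP1 lie between 11.05 and 12.41, above controls at 4.32 to 6.58, and those of AJUBA between 10.46 and 10.67, below controls at 11.94 to 12.15.

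Immediate-early genes moved in both directions. Of 27 measured members 4 rose (14.8%, against 1.61% of all genes) and 3 fell (11.1%, against 1.02%), with a median of 0.32. NR4A2, an orphan nuclear receptor, rose 3.03-fold (adjusted p = 0.0130), and MAFK, a small partner of bZIP factors, rose by 0.76 on the log2 scale (adjusted p = 0.0423). Only 1 control array of NR4A2 was well above background. The treated mean of NR4A2, 6.76, lay within the range of the controls of the other groups (5.25 to 7.16). SRF, the factor that drives serum-induced transcription, fell by 0.59 (adjusted p = 0.0405), and CCN1 and CCN2, which are also on this list, fell as given above. The classical members FOS (-0.62), EGR1 (-0.85), JUN (0.38) and MYC (-0.66) did not pass the test; FOS varied from 0.54 in pair A to -2.12 in pair C.

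Kruppel-like factors, zinc-finger regulators of epithelial growth and quiescence, leaned upward. Of 14 measured members 4 rose (28.6%, against 1.61% of all genes), none fell and 12 had a ratio above 0. The median was 0.62, at 0.69, 0.83 and 0.52 in pairs A, B and C. KLF6 had levels of 14.44, 14.79 and 14.38 in treated cells against 13.08, 12.80 and 13.26, 2.81-fold higher with no overlap (adjusted p = 0.00910). All 4 of its probes rose. KLF9 rose 2.63-fold (adjusted p = 0.0246), KLF2 1.79-fold (adjusted p = 0.0437) and KLF12 1.67-fold (adjusted p = 0.0340), whereas KLF10 was at -0.97 and not called. Leaving out pair A or pair B left 1 called member.

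Of 15 measured MAP kinase feedback genes 4 rose (26.7%, against 1.61% of all genes) and 1 fell (6.67%, against 1.02%). DUSP10, which dephosphorylates p38 and JNK, was not well above background in any control and was at least 2.48-fold higher (adjusted p = 0.00763). DUSP8 rose 2.28-fold (adjusted p = 0.0255), DUSP5, a nuclear ERK phosphatase, 2.08-fold (adjusted p = 0.0453) and DUSP16 1.69-fold (adjusted p = 0.0401). DUSP7 was lower by 0.93 in 2 pairs (adjusted p = 0.0453), but with all spots kept it was at 0.33. CREM, a cAMP-responsive regulator with both activating and repressing forms, was at 10.04, 10.55 and 10.10 against 8.68, 9.02 and 8.54, 2.79-fold higher with no overlap (adjusted p = 0.00425). The EGF family ligands and receptors had 0 of 8 members called, with HBEGF at -0.64 and BTC at 0.44.

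Promoters of 3 genes that rose are shown for the letters that AP-1 and CREB factors bind: capitals mark TGANTCA in CLDN4 (chr7:73830746-73830995, plus strand) and MMP10 (chr11:102780629-102780878, minus strand), and TGACGTCA in CREM (chr10:35195652-35195901, plus strand). They are the 250 bases before the start, 5′ to 3′, from the same RefSeq table.
CLDN4: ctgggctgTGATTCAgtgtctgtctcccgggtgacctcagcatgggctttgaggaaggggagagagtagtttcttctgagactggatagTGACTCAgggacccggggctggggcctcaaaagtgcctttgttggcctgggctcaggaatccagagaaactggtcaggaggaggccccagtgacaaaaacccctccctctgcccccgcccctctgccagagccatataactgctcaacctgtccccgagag
MMP10: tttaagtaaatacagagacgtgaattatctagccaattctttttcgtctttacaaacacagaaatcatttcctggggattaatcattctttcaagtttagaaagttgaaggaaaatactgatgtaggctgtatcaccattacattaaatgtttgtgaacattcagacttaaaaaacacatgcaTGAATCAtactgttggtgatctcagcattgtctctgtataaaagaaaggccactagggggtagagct
CREM: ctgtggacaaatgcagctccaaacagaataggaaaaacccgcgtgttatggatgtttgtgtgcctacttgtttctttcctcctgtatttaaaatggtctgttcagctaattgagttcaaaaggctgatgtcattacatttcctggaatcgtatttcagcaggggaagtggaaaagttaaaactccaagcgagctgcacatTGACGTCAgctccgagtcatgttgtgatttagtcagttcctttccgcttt
The AP-1 letters lie 242 and 161 bases before the start of CLDN4 and 67 bases before that of MMP10, and the CRE letters 50 bases before one of 7 starts of CREM. On both strands, the AP-1 letters were in 15.6% of 192 called-higher genes with a window, 7.94% of 126 called-lower genes and 6.35% of tested genes. The CRE letters were in 4.69% of called-higher genes and 3.30% of tested genes.

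Few genes of the inflammatory lists were called, but the lists are short. Shares called higher were 10% of chemokines, 10% of cytokines, 6.67% of NF-kB, 4.76% of Toll-like receptor and 7.14% of interferon-stimulated genes. That of prostaglandin genes was 0%, and that of all genes was 1.61%. CCL20, a chemokine for dendritic cells and lymphocytes, was at 7.20, 8.79 and 7.67 in treated cells against 5.85, 6.35 and 5.61, a rise of 3.87-fold with no overlap (adjusted p = 0.0156), and was the only one of 10 chemokines called. CXCL8 (0.63), CXCL1 (-0.20) and CCL2 (-0.94) were not called. Of 10 cytokines 1, IL23A, rose (2.43-fold, adjusted p = 0.0493), of 15 NF-kB genes 1, TRAF1 (1.84-fold, adjusted p = 0.0187), and of 21 Toll-like receptor genes 1, IRAK2 (2.57-fold, adjusted p = 0.0181). IL6 was at -0.18, IL1B at 1.28 with 0.12, 1.03 and 2.69 in pairs A, B and C, and the inhibitors NFKBIA and TNFAIP3 at 0.23 and 0.67, none called. BCL2A1, a survival gene of the NF-kB pathway, rose 2.98-fold (adjusted p = 0.00398), though its brighter probe was at 0.21 and not called. Interferon-stimulated genes had 2 rises (ISG20, 3.11-fold, and IRF9, 1.65-fold) and 1 fall (USP18, by 0.83) among 28. PTGS2, cyclooxygenase-2, was at 1.01 and not called (adjusted p = 0.209).

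Among TGF-beta and BMP genes 3 of 25 rose (12%, against 1.61% of all genes) and none fell. BMP6, a bone morphogenetic protein, rose 3.24-fold (adjusted p = 0.0297), SMURF1, a ubiquitin ligase of the pathway, 1.61-fold (adjusted p = 0.0415) and INHBA, an activin subunit, 3.38-fold in 2 pairs (adjusted p = 0.0296).

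Most cell cycle genes had ratios below 0, with few calls. Of 34 G1/S and replication genes 4 fell (11.8%, against 1.02% of all genes) and 2 had a ratio above 0. Their median was -0.41, at -0.43, -0.64 and -0.15 in pairs A, B and C. CDC6, a replication licensing factor, fell by 0.68 (adjusted p = 0.0362), MCM10 by 0.63 (adjusted p = 0.0499), CCND1, cyclin D1, by 0.62 (adjusted p = 0.0453) and ORC1 by 0.60 on the log2 scale (adjusted p = 0.0495). Of 38 mitosis genes 0 were called by limma, 14 were lower at an unadjusted p under 0.05, 3 had a ratio above 0 and the median was -0.43, smallest in pair C (-0.18) and largest in pair B (-0.73). MKI67 was at -0.77 and PLK1 at -0.75. Of 31 DNA damage genes 1, MDC1, fell, by 0.54 (adjusted p = 0.0493).

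The p53 list had 3 rises (11.5%) and 1 fall (3.85%) among 26 genes, against 1.61% and 1.02% of all genes. The rises were TP53INP1, CDKN1A and PLK3. The fall was GADD45A, by 0.68 on the log2 scale (limma, adjusted p = 0.0374). CDKN1A, the p21 inhibitor of cyclin-dependent kinases, stood at 13.36, 13.16 and 13.28 in treated cells against 12.64, 12.35 and 12.53, a rise of 1.69-fold with no overlap (adjusted p = 0.0184), and PLK3 rose 1.94-fold (adjusted p = 0.0296). MDM2 (0.37), BBC3 (0.18) and SESN2 (0.96) did not pass the test, and the median of the list was 0.07. In the BCL2 family BMF rose and BCL2L1, which encodes BCL-XL, fell by 0.78 (adjusted p = 0.0427), the only 2 called of 16. No caspase or death receptor of 26 was called by limma, with 6 higher and 2 lower at an unadjusted p under 0.05.

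Few stress genes were called, but the lists are short. Shares called higher were 9.09% (ATF4 targets), 5% (unfolded protein response) and 5% (heat shock), against 1.61% of all genes. NRF2 targets, metallothioneins and hypoxia genes had 0%. Shares called lower were 4.55% of ATF4 targets, 10% of the metallothionein list and 6.25% of hypoxia genes, against 1.02% of all genes. Of 22 ATF4 targets DDIT3 (CHOP, 2.60-fold, adjusted p = 0.0493) and CEBPB (2.02-fold, adjusted p = 0.0402) rose and the amino acid transporter SLC7A5 fell by 0.68 (adjusted p = 0.0376). DNAJB9 was the 1 unfolded protein response gene called of 20 (1.64-fold) and HSPB8 the 1 heat shock gene of 20 (1.90-fold). Of 27 NRF2 targets 0 were called by limma (4 lower at an unadjusted p under 0.05), with HMOX1 at 0.18, NQO1 at -0.025 and a median of -0.13. SLC30A1, the zinc exporter that is induced by zinc, was listed with the metallothioneins and fell: 9.93, 9.66 and 9.84 in treated cells against 11.08, 11.06 and 10.99, a fall of 1.23 with no overlap (adjusted p = 0.00488). MT2A (-0.42) and MT1X (-0.61) were not called. Hypoxia genes had 2 falls of 32, the glucose transporter SLC2A3 (by 1.52, in 2 pairs, limma, adjusted p = 0.0229) and the oxygen sensor EGLN3 (by 1.25, adjusted p = 0.0246). SLC2A3 was well above background on only 1 treated and 2 control arrays and had no value in control C. With all spots kept, its means were 4.63 in treated cells and 5.36 in controls, a smaller gap than the fitted one. EGLN3 was well above background on 2 arrays of each group.

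Genes of particle handling were near the level of all genes. None of 30 endocytosis genes and none of 34 secretory transport genes was called by limma, with 7 and 4 at an unadjusted p under 0.05, and their medians were 0.010 and -0.002. RAB7A was at 0.64 and STX3 at 1.07. Of 32 lysosome and autophagy genes 1 rose (3.12%, against 1.61% of all genes). It was GABARAPL1, which encodes an autophagosome protein (2.31-fold, limma, adjusted p = 0.0432), and both its probes rose. Cholesterol synthesis (0 of 25, median 0.12), fatty acid synthesis (0 of 13), oxidative phosphorylation (0 of 31), proteasome (0 of 31) and ribosomal protein genes (0 of 42, median -0.080) had no call by limma, with 1, 2, 3, 1 and 0 members at an unadjusted p under 0.05. GAPDH was at 0.053 (adjusted p = 0.814), at 16.62, 16.69 and 16.76 against 16.57, 16.54 and 16.80.

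**Figure D4:**
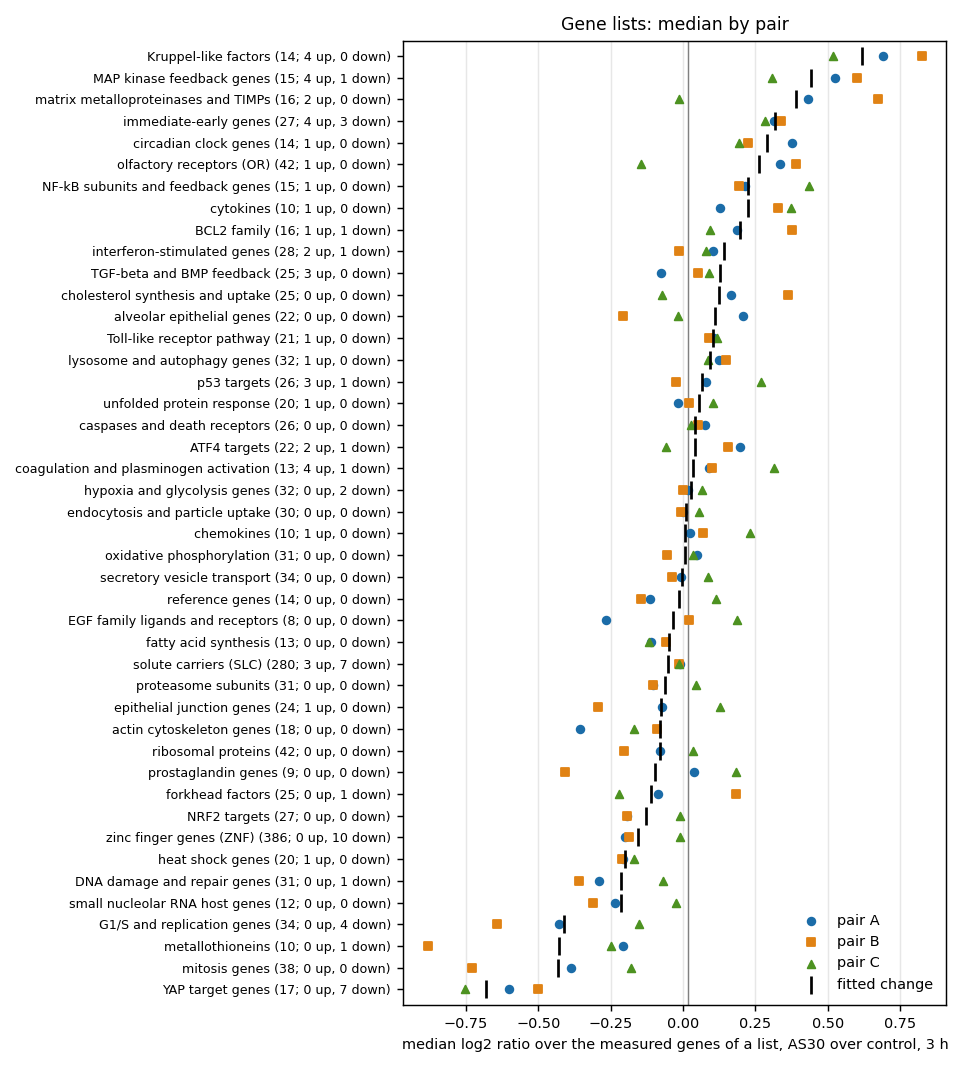
Median log2 ratio of treated over control for each gene list after AS30 NPs at 3 h (x axis), with points for the 3 pairs, a tick for the fitted change, and the numbers of measured members, rises and falls in the row's name. YAP targets have the lowest median (-0.68) and Kruppel-like factors the highest (0.62); the line at 0.016 is the median of all genes.

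Falls outside the YAP list with small adjusted p included secreted and membrane proteins. EDN2, endothelin-2, was at 8.60, 7.38 and 8.03 in treated cells and 10.62, 9.90 and 9.55 in controls, a fall of 2.02 ± 0.23 with no overlap (limma, adjusted p = 0.00910). Between the 22 h controls on the 2 slides EDN2 differed by 1.05, opposite in sign, and with normexp correction its change was -1.14. FZD2, a Wnt receptor, was at 11.33, 10.85 and 11.45 against 12.46, 12.57 and 12.37, a fall of 1.26 (adjusted p = 0.00959), and ARHGEF26, a guanine nucleotide exchange factor, fell by 1.335 on the log2 scale (adjusted p = 0.00524). For FZD2 too the groups did not overlap. FMN2, a formin, and UBTF, a factor of ribosomal RNA transcription, were called lower, by 1.35 and 1.37, but their brighter probes were at -0.56 and -0.92 and not called.

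For several of the largest falls the controls stood apart. In ADTRP, SLC25A40, CNGB1, GRPEL1 and KCNH2, as in THBD, each of the 3 controls lay above all 6 control arrays of the other groups. The treated mean lay within the range of those 6 arrays, except for KCNH2, where it was above them (5.82 against 4.43 to 5.54). ADTRP, a membrane hydrolase, averaged 7.34 in its controls, 4.78 in treated cells and 3.22 to 5.39 in the other controls. Among 45 named falls, 7 were of this kind, 27 had all 3 treated arrays below the 6 other controls and 11 neither. Among 54 named rises, 0 had controls below all 6 others, 50 had every treated array above them and 4 neither. SLC25A40 had a second, brighter probe at -0.18, CNGB1 one at 0.33 and GRPEL1 one at -0.28, none called.

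Zinc finger genes named ZNF gave 10 falls and no rise among 386 measured (2.59% lower, against 1.02% of all genes), with a median of -0.15 and 119 above 0. ZNF709 had the largest of the named falls, at 6.90, 6.53 and 6.67 against 8.08, 8.58 and 8.61, or 1.72 on the log2 scale (adjusted p = 0.0296). Of 280 solute carriers 3 rose (1.07%, under the 1.61% of all genes) and 7 fell (2.5%, against 1.02%). SLC9B2, a sodium/proton exchanger, rose 3.35-fold (limma, adjusted p = 0.00676). SLC16A14 fell by 1.165 on the log2 scale (limma, adjusted p = 0.00676), but was well above background on only 1 treated and 2 control arrays. Between the 22 h controls on the 2 slides it differed by -0.62, the same sign as its fall.

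Compared with the other exposures in the same fit, the smaller SM30 NPs at 3 h gave 2146 called probes and AS30 NPs at 22 h gave 1008, against 720 here. The tests of the differences called few probes: 4 for SM30 minus AS30 at 3 h, with 4176 at an unadjusted p under 0.05, and 8 for AS30 at 22 h minus 3 h, with 4735. The dose was the same for both NPs, so their surface differed with diameter. The paper also lists a different counterion and supplier pH for each, and the SM30 arrays lay on other slides. The part of size alone was not tested. MMP1 was at 7.09 on the log2 scale after SM30 NPs and 4.04 at 22 h, beside 6.04, and its difference from SM30 NPs did not pass the test (1.05 ± 0.54, SE; limma, adjusted p = 0.424). The 22 h value of MMP1 rests on 1 pair. KLF6 was at 2.17, 1.49 and 0.25 after SM30 at 3 h, AS30 at 3 h and AS30 at 22 h. AJUBA was at -1.93, -1.46 and -0.69, CCN2 at -1.09, -1.28 and -0.62 and CCN1 at -0.82, -1.29 and -0.36. TRAF1 was at 2.23, 0.88 and 0.09. The difference between recovery times was called for CLDN4 and THBD among these. CLDN4 was at 2.61 at 3 h and 0.43 at 22 h, a difference of -2.17 ± 0.24 (adjusted p = 0.0470). THBD, which fell by 1.12 at 3 h, was at 0.60 at 22 h and 0.08 after SM30 NPs, and differed between the recovery times by 1.72 ± 0.19 (adjusted p = 0.0488). Scaled to the 75th percentile, 0 probes were called for the difference between recovery times. With slide as a fixed block 8 were called, 0 of them shared with the main fit. Leaving out 1 pair gave between 0 and 252, the highest without AS30 3 h pair C and 98 without AS30 22 h pair B.

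**Figure D5:**
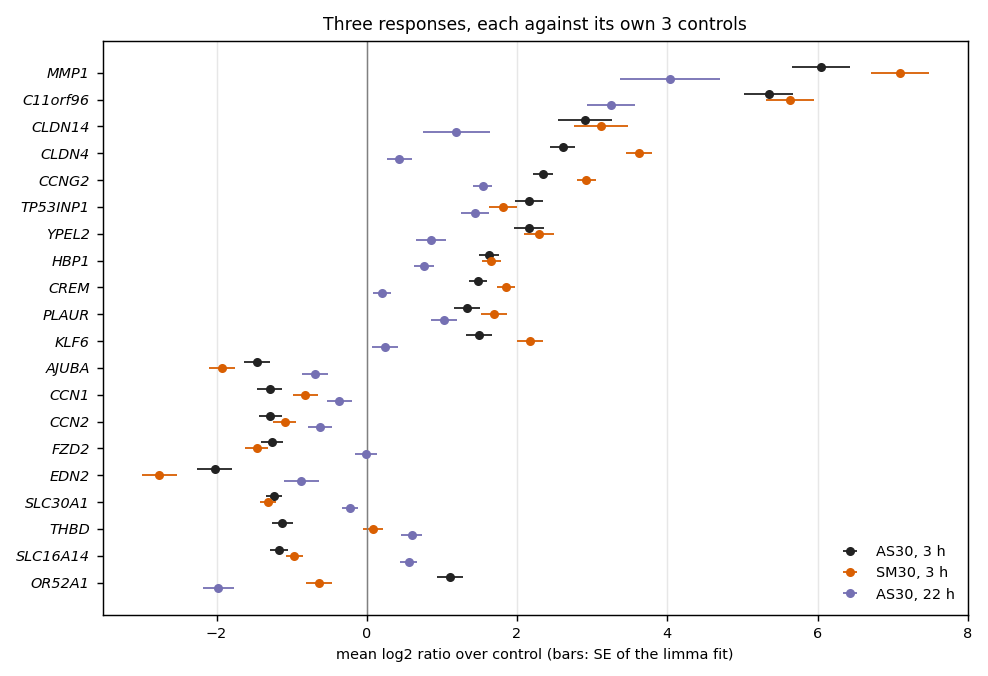
Log2 ratio of named genes after AS30 NPs at 3 h, SM30 NPs at 3 h and AS30 NPs at 22 h (x axis, treated over control), with 1 row a gene, points for the fitted mean and bars for its SE. MMP1 is at 6.04, 7.09 and 4.04 (the last from 1 pair; CLDN14 and OR52A1 have 2 at 22 h), and CLDN4 goes from 2.61 at 3 h to 0.43 at 22 h.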

How the data were processed

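RNA of A549 cells was labelled with Cy3 and hybridized to 1-colour Agilent arrays. Per the file headers and the study's methods, the authors deposited scanner intensities from Agilent Feature Extraction (gProcessedSignal, background-subtracted, with flags used here as other values) and a table of normalized intensity values. Probe positions in the files are those of hg18. Here log2 intensity of non-control spots was quantile normalized over 18 arrays. Spots not positive and significant were set to missing, outlier spots were left out, spots were averaged per probe, and probes missing on over 33% of arrays were removed, leaving 28665. Ratios were taken of treated over same-letter control arrays, as the study's methods describe. The 9 ratios were fitted as 3 classes in limma 3.58.1 (R 4.3.3) with Benjamini-Hochberg adjustment over all probes and a threshold of 0.05. Gene names came from accessions (19057 probes), current names (1619), older names (621) or gene numbers (590), and 6778 kept the file's name. For each gene list 1 probe a gene was used, that of highest mean signal.

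A bound was given in place of a fold where no array of a group cleared the well-above-background flag. It sets the mean of the brighter group against, per array of the dimmer group, the higher of the lowest signal well above background and the probe's own. The named genes are the 15 largest rises and 15 largest falls called in all 3 pairs, the 8 smallest adjusted p in each direction, up to 5 called members of each of 44 lists (2 leading members where none was called) and GAPDH; a few of these items are not reported here. Members and lists were chosen with earlier results of these data known. Precision is limited by the number of arrays, 3 a group. Alternatives were another scaling, background correction, flag handling, the deposited table, slide as a block, other denominators and leaving out each array pair.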

Additional observations from a re-analysis of the deposited data

Results flagged for a closer look

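In a test of the difference itself, the change after AS30 NPs differed between 22 h and 3 h of recovery for 4 named genes (limma, Benjamini-Hochberg over all probes; 3 pairs at each time, except 2 at 22 h for OR52A1). CLDN4 differed by -2.173 ± 0.24 (adjusted p = 0.0470), going from 2.61 at 3 h to 0.43 at 22 h. OR52A1, an olfactory receptor gene that did not clear background in any 3 h control, had a fitted difference of -3.076 ± 0.27 (adjusted p = 0.0470). Since its controls were that dim, the fitted value is no measure of size, and its rise at 3 h is given only as at least 1.19-fold. SLC16A14 differed by 1.721 ± 0.17 (adjusted p = 0.0470), from -1.165 to 0.56. At 3 h it was well above background on only 1 treated and 2 control arrays. Between the 22 h controls on the 2 slides SLC16A14 differed by -0.62, the same sign as its fall at 3 h. THBD differed by 1.722 ± 0.19 (adjusted p = 0.0488), from -1.12 to 0.60, and its 3 h controls lay above the control arrays of the other groups.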

How the results depend on the processing

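The count of 720 called probes after AS30 NPs at 3 h was 274 with all spots kept, 0 with normalization over the 6 arrays alone, 0 with the 3 ratios of AS30 at 3 h alone, 52 with slide as a fixed block, 3931 with slide as a random block and 9885 with the mean of the 3 controls as denominator. In the last, the 3 ratios share 1 denominator, so they are not independent and the spread between controls is left out. Without the replicate block, as unpaired arrays, it was 1313, of which 579 were shared. Deviations of treated and control arrays of the same letter correlated at 0.45, -0.092 and 0.08 for A, B and C, so the letters were not shown to pair samples. Leaving out 1 pair gave 81 to 3060 probes. The 4 probes of SM30 minus AS30 became 14 without the replicate block, 26 with slide as a fixed block and 0 to 7 with a pair left out. The 8 of 22 h minus 3 h became 69 without the replicate block, 0 when scaled to the 75th percentile and 0 to 252 with a pair left out. With slide as a fixed block the count was again 8, but 0 of these were shared. The causes were not tested. Of 99 named called probes, 22 lost the call under none of the alternatives that gave them a value, other than the 3 that left none of the 99 called (the 6 arrays alone, the 3 ratios alone, slide as a fixed block). Of these 22, 15 had a value under all 21 alternatives and 7 under 19 or 20. Among named values, the sign turned for DUSP7 with all spots kept (0.327), for BTC (-0.077), CASP8 (-0.128), HPRT1 (0.242) and GAPDH (-0.300) with slide as a fixed block, and for RPL13 (0.219) when scaled to the 75th percentile. Dim probes limit the precision: 66 of the probes that rose and 37 of those that fell had a group not well above background on any array.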

Other observations

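Some gene groups were put together after the values were seen, so their counts are descriptions with no test. Over all genes 1.61% rose and 1.02% fell. Of 34 measured genes linked to FOXO factors, 10 rose and none fell, 27 had a ratio above 0 and the median was 0.52 on the log2 scale, against 0.016 for all genes. The 10 were BCL6 (0.93), BMF, CCNG2, CDKN1A, DEPP1, GABARAPL1, HBP1, KLF6, SOD2 (1.47) and TP53INP1. The forkhead letters TGTTTAC or GTAAACA, on both strands, were in the window upstream of the start of 5.21% of genes called higher, 2.38% of genes called lower and 3.08% of tested genes.

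The counts of the next groups also stand beside 1.61% of all genes higher and 1.02% lower. Of 30 autophagy genes 3 rose, namely ATG2A (0.77), GABARAPL1 and TP53INP1. Of 25 frizzled and Wnt genes none rose and 2 fell, FZD2 and PRICKLE2, with a median of -0.47. All 5 YPEL genes had a ratio above 0 and 1, YPEL2, rose. Of 33 cAMP pathway genes CREM and NR4A2 rose and ADCY1 and PRKACB (-1.31) fell.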
